A study of Ovis aries with 2 samples.

Results

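The genes described here are the translation initiation and elongation factors of sheep blood mononuclear cells. They were chosen by name alone. Of 26761 gene names in the count matrices, 64 start with EIF or EEF. The 4 EIF2AK names, which belong to kinases that phosphorylate eIF2, were left out, and 60 genes remained. Of these, 40 are initiation factors and 9 are elongation factors, with EIF5A and EIF5A2 counted as elongation factors because their product is known mainly for helping the elongating ribosome past difficult sequences. The 7 elongation genes with EEF names were also summarised alone. The other 11 genes encode regulators or modifiers of these factors. EIF4E1B had no UMI (unique molecular identifier, 1 counted molecule) in either library, and EIF3C and EIF1AY, which the files do not list under those names, were not analysed here.

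Translation initiation places a ribosome on the start codon of a messenger RNA. The eIF2 complex delivers the initiator tRNA, eIF3 holds the small ribosomal subunit and the messenger RNA together, and the eIF4 proteins bind the cap and unwind the leader. EIF1, EIF1A and EIF5 control start-codon recognition, and EIF5B joins the large subunit. During elongation, eEF1A brings each aminoacyl-tRNA, the eEF1B subunits recharge eEF1A with GTP, and eEF2 moves the ribosome by a codon. Lymphocytes that leave rest raise their output of protein, and many of these genes are expressed more in dividing than in resting lymphocytes.

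The blood cells came from lambs and were isolated on a density gradient and used without culture. In one library the animals were untreated. In the other they had received A.G.-ES, a suture that releases astragaloside IV and glycyrrhizic acid, embedded at both ST36 acupoints before blood was drawn. Each condition has 1 library of 3' single-cell RNA-seq, so no difference between conditions has a replicate check, and no p-value is given. The number of animals behind each library, their sex and age, and the time from embedding to bleeding are not stated in the labels used here.

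The untreated library gave 7565 usable cells (50545931 UMIs, median 5127 per cell) and the treated library 8737 (39302959 UMIs, median 4103). The libraries shared 61 barcodes, 55 of them among the retained cells. The 85 names that the RefSeq sheep table places on the Y chromosome held 40441 UMIs in the untreated library and 756 in the A.G.-ES library, so the libraries also differ in Y-linked RNA, and treatment cannot be told apart from differences between the animals sampled. Levels are UMIs summed over the cells of a gate and scaled to 1000000 in all (CPM). A molecule is counted once at its 3' end, so CPM was not divided by length. Ratios are A.G.-ES over untreated on the CPM scale. Every interval in square brackets is a 95% interval, exact conditional binomial for ratios and exact Poisson for levels, and covers counting error only. A gene is called measured in a gate with at least 100 UMIs over both libraries, and called higher or lower when its ratio was at least 1.5-fold.

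Cells were put into 6 gates by marker UMIs. The B gate held 3362 untreated and 1765 A.G.-ES cells, the CD4 T gate 356 and 1381, the CD8B T gate 222 and 689, the SOX13/RHEX T gate (gamma-delta-like by those markers) 1641 and 849, the NK gate 43 and 65, and the monocyte gate 142 and 244. The B marker list summed to 7425 and 5235 CPM in the B gate. The T list, with 6 of 8 genes named in the files, summed to between 2083 and 2463 CPM in the 3 T gates. In the SOX13/RHEX T gate the B list stood at 741 and 545 CPM, nearly all from BLK and CD79A, with MS4A1 at 3.1 and 2.6 CPM. The monocyte list summed to 10455 and 8895 CPM in its gate. The NK gate rests on few cells, and in it the monocyte list stood at 5.7 CPM in the untreated library and 968 in the A.G.-ES one; S100A8 and S100A9 made up most of it, and CD14, VCAN, LYZ, CD68 and TLR4 were at 0. NK values are therefore given only briefly.

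In total the 60 genes took 0.968% of all UMIs in the untreated library and 0.920% in the A.G.-ES library. EIF1 had the most UMIs (918 and 1168 CPM), and among initiation factors it was followed by EIF5 (482 and 554 CPM), EIF3E (408 and 338 CPM), EIF4G3 (412 and 259 CPM) and EIF3K (304 and 396 CPM). Among elongation factors, EEF1A1, which carries aminoacyl-tRNA to the ribosome, was at 779 and 744 CPM. EEF1G (643 and 576 CPM) and EEF1B2 (574 and 549 CPM) encode subunits of its exchange factor, EEF2 (437 and 356 CPM) the translocase, and EIF5A stood at 336 and 242 CPM. EEF1A1 and several other highly expressed factors have near-identical retrocopies in mammalian genomes, and how shared reads were counted is not given in the sources used here, so their levels are uncertain. EEF1A2, the muscle and neuron paralogue of EEF1A1, had 18 and 29 UMIs in total, and EEF1AKMT3 had 65 and 21. These are the only expressed members below the 100-UMI minimum in the whole libraries.

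The gates differed in how much of their RNA came from these genes, and the monocyte gate had the least. The summed initiation factors reached 6387 CPM in untreated B cells and 6300 in A.G.-ES B cells, 5999 and 6177 in CD4 T, 6312 and 6523 in CD8B T, 6550 and 6444 in SOX13/RHEX T, 6586 and 6066 in NK, and 4976 and 5252 in monocytes. The summed elongation factors varied more. They stood at 3268 and 3097 CPM in B, 2238 and 2647 in CD4 T, 2693 and 2721 in CD8B T, 3209 and 3477 in SOX13/RHEX T, 2376 and 1843 in NK, and 1369 and 1887 in monocytes. Elongation-factor UMIs per initiation-factor UMI were 0.512 and 0.492 in B cells, 0.490 and 0.540 in SOX13/RHEX T cells and 0.275 and 0.359 in monocytes. Among 55 members with at least 100 UMIs over the 5 larger gates of the untreated library and a UMI in each, 39 had their lowest level in the monocyte gate, and in the A.G.-ES library 35 of 54 did. With a stricter gate these counts were 22 of 40 and 22 of 48. How many of all genes were lowest in the monocyte gate was not computed, so these counts cannot be read as particular to these factors.

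**Figure D1:**
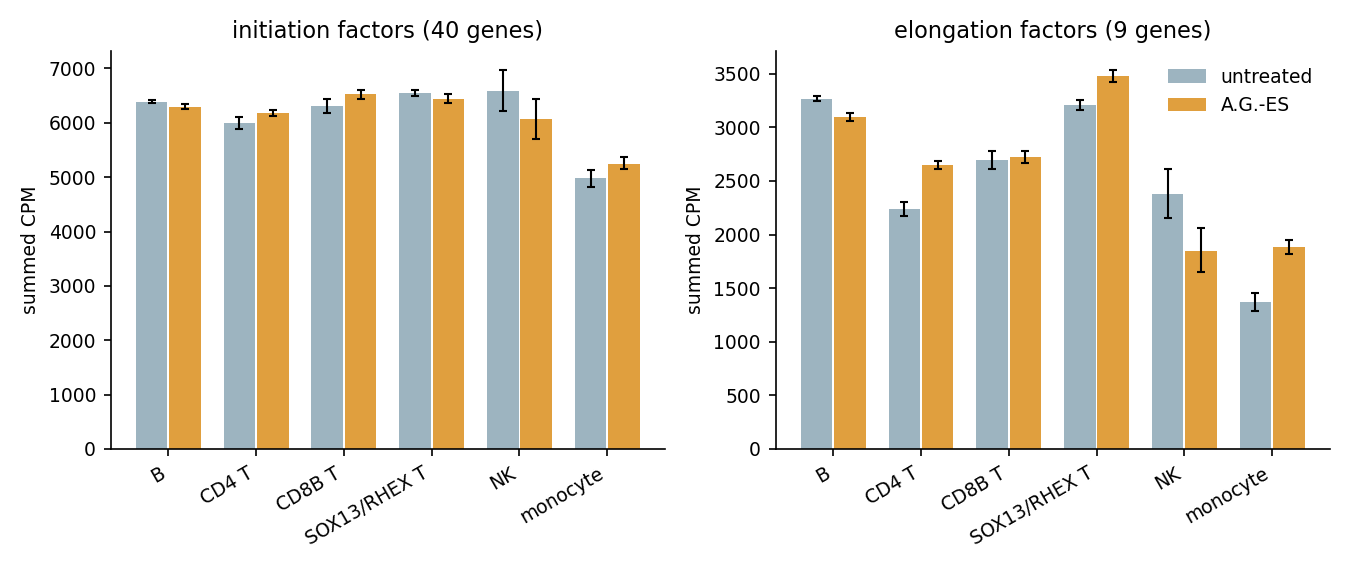
Summed CPM of the 40 initiation factors (left) and the 9 elongation factors (right) in each marker gate, with grey-blue bars for the untreated library, orange bars for the A.G.-ES library and error bars for the exact Poisson 95% interval (counting error only, 1 library per condition). Initiation sums lie between 4976 and 6586 CPM in every gate, whereas elongation sums range from 1369 CPM in untreated monocytes to 3477 CPM in A.G.-ES SOX13/RHEX T cells.

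Of those members, 6 of 55 in the untreated library and 9 of 54 in the A.G.-ES library had their highest level in the monocyte gate. The same count over all genes was not made. EIF4E3, an atypical cap-binding paralogue of EIF4E, stood at 174 CPM [146 to 206] in untreated monocytes and 155 CPM in A.G.-ES monocytes, against 46.1 and 40.8 CPM in SOX13/RHEX T cells, 32.8 and 44.3 in CD8B T, 25.3 and 34.0 in CD4 T, and 1.22 and 7.71 in B cells. Its monocyte level was 143-fold its B-cell level in the untreated library and 20.0-fold in the A.G.-ES library. EIF4EBP1, which binds EIF4E and blocks cap-dependent initiation until mTORC1 phosphorylates it, was at 79.1 and 74.6 CPM in monocytes and at 25.1 CPM or less in every other large gate. EIF5 was also highest in monocytes, at 821 and 766 CPM. EIF1B, a paralogue so like EIF1 that reads could be shared between them, was highest in SOX13/RHEX T cells (180 and 155 CPM) and lowest in monocytes (36.3 and 31.0 CPM).

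In the whole libraries, of 57 measured members, 2 were higher in the A.G.-ES library, where 15.2% of 11770 measured genes were, and 7 were lower, where 16.9% were. Their median log2 ratio was −0.20, beside −0.07 for all measured genes. EIF4E3 (17.2 to 40.6 CPM, 2.36-fold [2.17 to 2.56]) and EIF5A2 (11.1 to 16.9 CPM, 1.52-fold) were the higher ones. The lower ones were EEF2KMT, which methylates eEF2 (log2 ratio −1.46), the eIF2B alpha subunit gene EIF2B1 (−0.74), the eEF1A lysine methyltransferase EEF1AKMT1 (−0.74), the cap-scaffold gene EIF4G3 (−0.67), the 60S anti-association factor EIF6 (−0.65), EIF3I (−0.59) and EIF2S2 (−0.59). Next below EIF5A2 were EIF3G (0.52), EIF3K (0.38) and EIF1 (0.35). The untreated library held more B cells and the A.G.-ES library more CD4 T cells, so a whole-library ratio mixes cell makeup with level. EIF4E3, for one, was lowest in B cells in both libraries. The ratios below were therefore taken within gates.

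**Figure D2:**
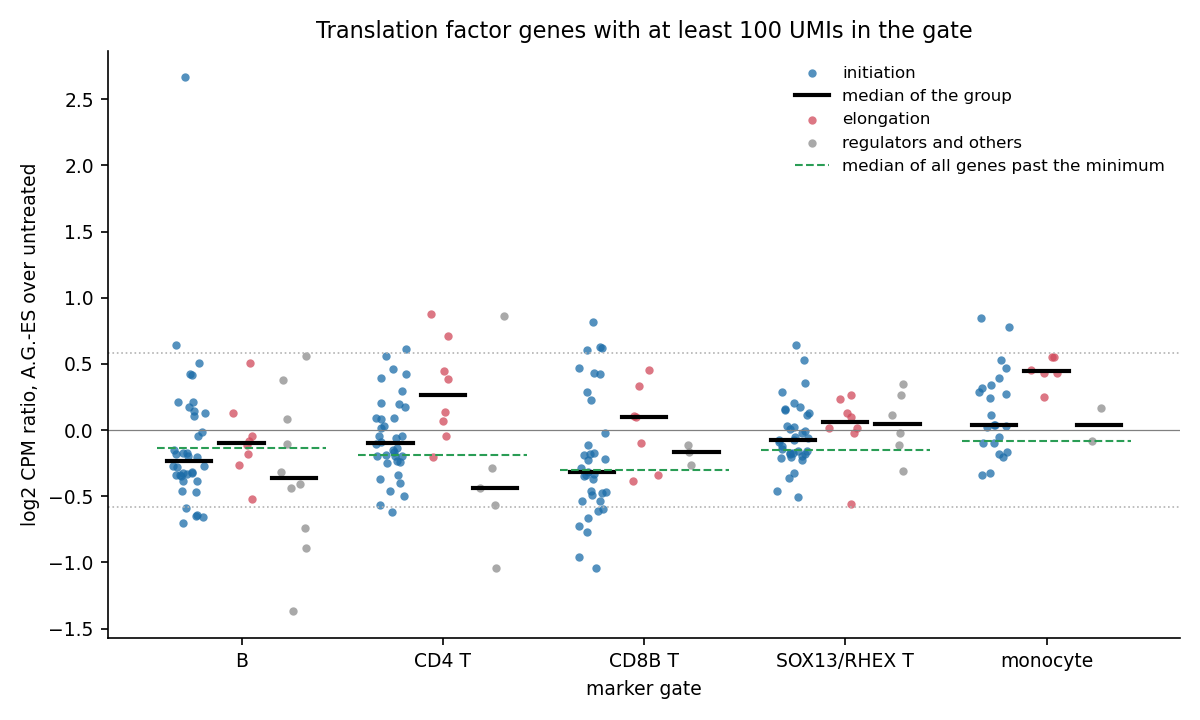
Log2 CPM ratio (A.G.-ES over untreated, y axis) of each measured member in 5 marker gates (x axis), 1 point per gene, blue for initiation, red for elongation and grey for regulators and others. Black bars are group medians, green dashed lines the median of all measured genes, and dotted lines mark 1.5-fold. Elongation medians lie above initiation medians in all 5 gates, by 0.134 to 0.410, although in the B and CD8B T gates summed elongation UMIs per initiation UMI went down (0.512 to 0.492 and 0.427 to 0.417), and most points lie within the dotted lines.

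In the B gate 56 members were measured. Higher were 2 of them, beside 9.55% of 9930 measured genes, and lower were 8, beside 16.9%. With ratios centred on the median of all genes, 5 were higher and 3 lower, and the share of all genes called that way is not given here. The median log2 ratio was −0.24 for initiation factors and −0.10 for elongation factors, beside −0.13 for all genes. EIF1, the factor that keeps the scanning ribosome from stopping at the wrong codon, rose from 816 CPM [807 to 826] to 1276 CPM, 1.56-fold [1.53 to 1.60]. EIF4E3 had 39 UMIs in 3362 untreated B cells and 79 in 1765 A.G.-ES B cells, or 1.22 and 7.71 CPM, a ratio of 6.34 [4.27 to 9.56]. It was the largest ratio of any measured member in the 6 gates. The monocyte list summed to 7.9 and 13.5 CPM in the B gate, and the T list to 21.4 and 45.7 CPM. The gate itself limits monocyte markers and CD3 UMIs, so these sums are low in part by design. The NK list, which the gate does not limit, stood at 12.8 and 31.9 CPM, CD8B at 0.41 and 15.1 CPM, and the platelet list at 9.5 and 7.2 CPM. Whether other cells in the gate add to the EIF4E3 ratio was not tested.

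EIF4E3 also differed within the B gate. In the A.G.-ES library it stood at 17.7 CPM (53 UMIs) in the 651 B cells without a UMI of SOX5, a gene of atypical memory B cells, and at 3.59 CPM (26 UMIs) in the 1114 with one. In the untreated library the same classes stood at 2.94 CPM (7 UMIs) and 1.08 CPM (32 UMIs), and 3053 of 3362 B cells had a SOX5 UMI. EIF4E3 was thus higher in the A.G.-ES library in both SOX5 classes, which also differed in size between the libraries. Split by FCER2, the gene of the B-cell antigen CD23, it went from 1.04 to 7.11 CPM in cells with a UMI and from 1.23 to 7.81 CPM in cells without. Split by NPAS3 it went from 1.18 to 9.40 CPM in cells without a UMI, but stood at 2.43 and 0.977 CPM in those with one, on 2 UMIs in 84 cells and 2 UMIs in 317. The share of B cells with an EIF4E3 UMI was 1.01% and 3.29%. After thinning every cell to 1500 UMIs it was 0.122% [0.033 to 0.312] of 3282 cells and 0.749% [0.399 to 1.28] of 1736, where brackets are exact binomial intervals. Shares in thinned monocytes were 28.1% and 17.2%.

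The members that were lower in A.G.-ES B cells belonged to several steps. EEF2KMT fell from 202 UMIs to 25 (6.30 to 2.44 CPM, log2 ratio −1.37), EEF1AKMT1 from 6.71 to 3.61 CPM (−0.89), and EEF1E1, a scaffold protein of the aminoacyl-tRNA synthetase complex, from 10.6 to 6.35 CPM (−0.74). Among initiation factors, EIF4G3 was the most abundant of the lower ones, going from 483 CPM to 306 CPM, a ratio of 0.634 [0.609 to 0.658]. EIF3I (57.0 to 35.1 CPM), EIF4E2, a cap-binding paralogue that represses translation (31.2 to 19.9 CPM), EIF2D (8.08 to 5.18 CPM) and EIF2S2 (80.0 to 53.2 CPM) had log2 ratios between −0.70 and −0.59. The cycling list fell from 454 to 120 CPM in the B gate and the antibody-secretion list from 814 to 441 CPM. Without cells carrying UMIs of at least 2 cycling markers, 4 members were lower in place of 8, and EIF4G3 was still at −0.69 and EEF2KMT at −1.18. Without cells carrying at least 3 secretion markers, none was higher, EIF1 was at 0.55 and EIF4E3, at 2.64, had only 15 and 45 UMIs and so was under the 100-UMI minimum. The shares of all genes called in these reduced sets of cells are not given here.

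In the CD4 T gate the elongation factors were the higher group. Of 49 measured members 4 were higher, beside 5.39% of 6721 genes, and 2 were lower, beside 14.9%. These counts were 10 and 1 with TMM scaling, 8 and 1 with centring, and 1 and 7 with cells thinned to 1500 UMIs. The shares of all genes called under these settings are not given here. The median log2 ratio was 0.26 for elongation factors, of which 6 of 8 were above 0, and −0.10 for initiation factors, beside −0.19 for all genes; with TMM scaling the initiation median was 0.12, because all ratios in this gate moved up by 0.21. EEF1B2, whose product reloads eEF1A with GTP, rose from 579 UMIs (293 CPM) to 3209 UMIs (478 CPM), 1.63-fold [1.49 to 1.79]. The other eEF1B subunit genes were between the lines, EEF1G at 408 and 555 CPM (1.36-fold) and EEF1D at 197 and 258 CPM (1.31-fold), while EEF1A1 itself was at 827 and 800 CPM (0.967-fold). With TMM scaling EEF1A1 was above 1 as well.

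EEF2K was the lowest member in CD4 T cells. It encodes the calcium- and calmodulin-dependent kinase that inactivates eEF2. It fell from 140 CPM [124 to 158] to 68.1 CPM [62.0 to 74.7], a ratio of 0.486 [0.418 to 0.566], and stayed past 1.5-fold lower under all 12 alternatives run for it. Those that change only the count minimum cannot alter a ratio. The share of CD4 T cells with an EEF2K UMI was 39.9% and 24.0%, and after thinning 20.9% and 10.1%. EEF2, the substrate, was at 287 and 315 CPM. EEF2K log2 ratios in the other gates were −0.44 in B, −0.26 in CD8B T, −0.31 in SOX13/RHEX T and 0.16 in monocytes, and whether the CD4 T ratio differs from these was not tested. In both libraries EEF2K was highest in CD4 T cells of the 5 larger gates.

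The other called members in CD4 T cells were of low or middle level. EIF5A2 (24 to 150 UMIs, 12.2 to 22.4 CPM) and EIF4EBP1 (19 to 117 UMIs, 9.62 to 17.4 CPM) were 1.84-fold [1.19 to 2.96] and 1.81-fold [1.11 to 3.12] higher, with wide intervals from the few untreated UMIs. EIF3G rose from 138 to 211 CPM, and EIF4G3 fell from 376 to 245 CPM. The cycling list was at 578 and 189 CPM in this gate. Without cycling cells the called counts were 4 higher and 3 lower, and EEF2K was at −0.98 and EEF1B2 at 0.71. The share of all genes called without these cells is not given here.

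In the CD8B T gate 4 members were higher and 7 lower of 45, and all 11 were initiation factors. Of 5327 measured genes 6.42% were higher and 27.8% lower. With TMM scaling or with ratios centred on the median of all genes, 10 members were higher and 2 lower, and with TMM 813 of the 5327 genes were higher and 587 lower. The initiation median was −0.31 and the median of all genes also −0.31, whereas the elongation median was 0.10. The sign of the initiation median is not stable: it was 0.02 with TMM scaling, which moved every ratio in the gate up by 0.34, and 0.36 with the stricter gate. Higher were EIF1 (704 to 1239 CPM, 1.76-fold [1.65 to 1.88]), EIF3G (244 to 376 CPM), EIF3K (304 to 466 CPM) and the helicase gene EIF4A2 (198 to 302 CPM). Lower were EIF4E2 (50.5 to 24.5 CPM), the main cap-scaffold gene EIF4G1 (77.6 to 39.9 CPM), EIF2S2 (77.0 to 45.2 CPM), EIF3B (47.3 to 28.6 CPM), EIF4G3 (394 to 249 CPM), EIF4H (162 to 106 CPM) and EIF3I (72.6 to 48.1 CPM).

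Markers of dividing cells differed most in the same gate. The cycling list in the CD8B T gate was at 1795 CPM in the untreated library and 282 CPM in the A.G.-ES library, and its marker AURKB was at 0 in both. When cells with UMIs of at least 2 cycling markers were left out, 149 untreated cells (652850 of 1584247 UMIs) and 611 A.G.-ES cells (2605259 of 3184144 UMIs) remained. The share of all genes called without the cycling cells is not given here. The members' median went from −0.23 to −0.05, and 1 member was lower in place of 7. That member was EIF4G3, at −0.73. EIF4G1 was then at −0.54, EIF2S2 at −0.48, EIF4H at −0.36 and EIF3I at −0.25, and EIF3B and EIF4E2 were below the 100-UMI minimum. Again 4 members were higher. They were EIF1 (0.63) and EIF3G (0.68), and in place of EIF3K (0.58) and EIF4A2 (0.47) the helicase gene EIF4A1 (0.85) and EIF2S3 (0.74).

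In the SOX13/RHEX T gate few factors passed 1.5-fold. Others differed by less, such as EIF3K (352 and 509 CPM) and EIF3H (323 and 234 CPM). Of 50 measured members, EIF3B alone was higher, beside 4.35% of 6947 genes, and none was lower, beside 12.9%. EIF3B, an RNA-binding scaffold of eIF3, had 140 UMIs (20.8 CPM) in untreated and 123 UMIs (32.6 CPM) in A.G.-ES cells, 1.56-fold [1.22 to 2.01]. The initiation median was −0.07 and the elongation median 0.06, beside −0.15 for all genes, and the initiation median was 0.02 with TMM scaling. EIF1 was at 1489 and 1415 CPM here, above its levels in the other 5 gates of each library. The cycling list was at 106 and 133 CPM.

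In monocytes all 6 measured elongation factors were above 0. Of 31 measured members 2 were higher, beside 7.87% of 3265 genes, and none was lower, beside 12.7%. The count of higher members ranged from 0 with the stricter gate, where 3 members were measured, to 5 with TMM scaling or centring. The shares of all genes called under those settings are not given here. EEF1A1 was at 494 CPM [446 to 546] and 725 CPM [685 to 767], 1.47-fold [1.31 to 1.65], EEF1B2 at 198 and 290 CPM (1.46-fold) and EEF2 at 192 and 259 CPM (1.35-fold). EEF1D, EEF1G and EIF5A stood at 1.37-fold, 1.35-fold and 1.19-fold. On the CPM scale none of the 6 reached 1.5-fold, whereas with TMM scaling EEF1A1 and EEF1B2 did. Their median log2 ratio was 0.44, beside 0.04 for initiation factors and −0.08 for all genes. The higher members were EIF3K (174 to 312 CPM, 1.79-fold [1.48 to 2.19]) and EIF4A2 (166 to 285 CPM, 1.72-fold [1.41 to 2.11]). The untreated monocyte gate rests on 142 cells with a median of 4876 UMIs and the A.G.-ES gate on 244 with a median of 6738.

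In the NK gate 9 members had 100 UMIs. None was called higher, beside 15.4% of 610 genes, and none lower, beside 17.4%. EEF1A1 was at 817 and 570 CPM and EIF5 at 503 and 651 CPM.

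**Figure D3:**
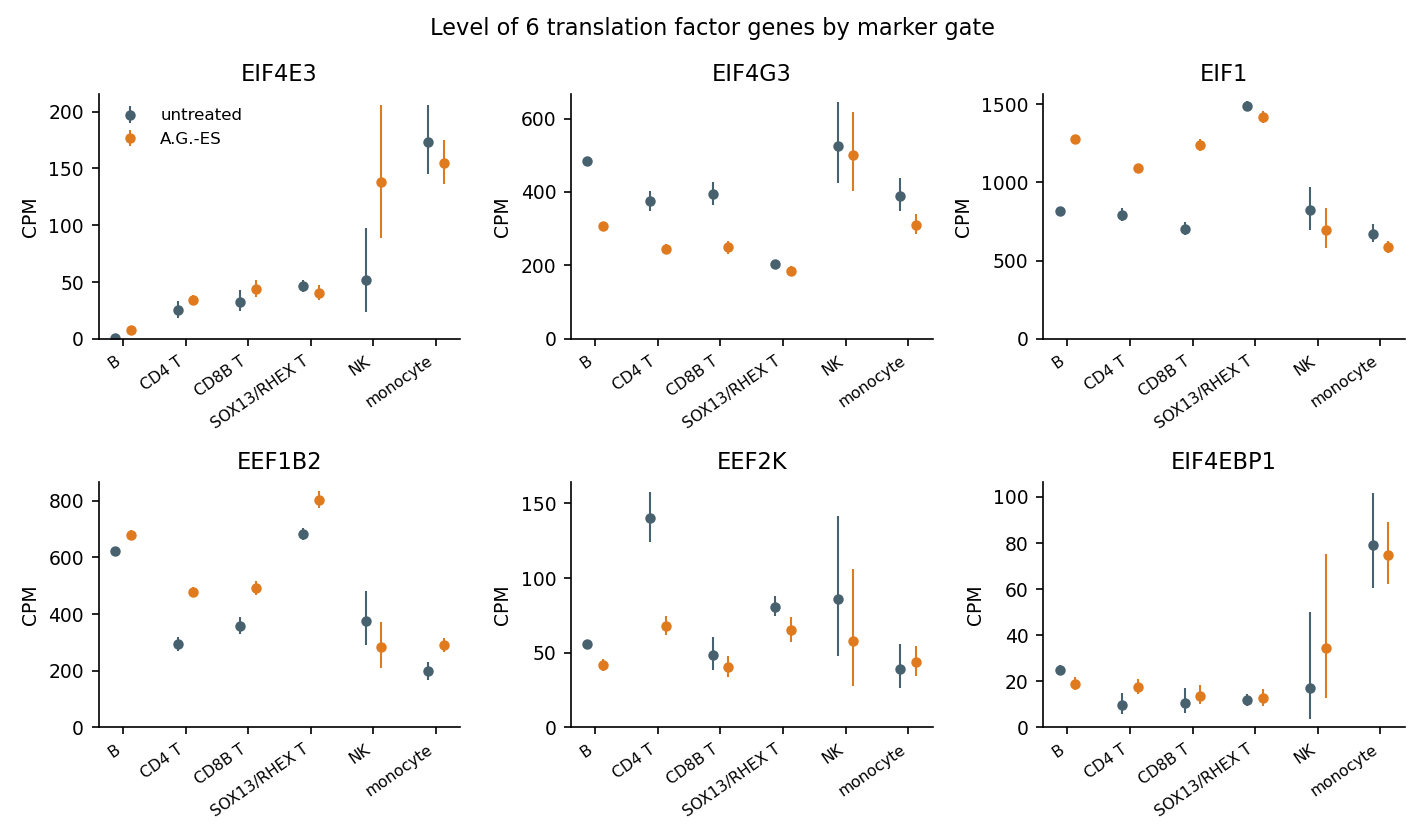
CPM (y axis, from 0) of 6 members in each marker gate (x axis), with dark points for the untreated and orange points for the A.G.-ES library and bars for the exact Poisson 95% interval. EIF4E3 and EIF4EBP1 are highest in monocytes, EIF1 stands at 1489 CPM in untreated SOX13/RHEX T cells, and EEF2K in untreated CD4 T cells lies at 140 CPM against 68.1 CPM in the A.G.-ES library.

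Elongation factors had a higher median ratio than initiation factors in all 5 larger gates. The initiation median minus the elongation median, on the log2 scale, was −0.139 in B, −0.360 in CD4 T, −0.410 in CD8B T, −0.134 in SOX13/RHEX T and −0.404 in monocytes. It was 0.264 in the NK gate, where 6 initiation and 3 elongation factors were measured. The summed UMIs went the other way in 2 of these gates. The summed elongation level had a ratio of 0.947 in B and the initiation level one of 0.986, and in CD8B T the ratios were 1.01 and 1.03. Elongation UMIs per initiation UMI thus went from 0.512 to 0.492 in B and from 0.427 to 0.417 in CD8B T, and from 0.373 to 0.428 in CD4 T. A change of total cannot move the difference of medians, since it shifts both alike. With EEF names alone the elongation medians were −0.10, 0.26, 0.10, 0.07 and 0.45 in the same 5 gates. The difference was negative under each alternative run in B, CD4 T, SOX13/RHEX T and monocyte gates, and turned to 0.070 in the CD8B T gate with the stricter gate. The medians were over 35 to 38 initiation factors and 7 or 8 elongation factors in the lymphocyte gates, and over 23 and 6 in monocytes.

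The messages of ribosomal protein genes carry the same terminal oligopyrimidine leader as those of several elongation factors. Over 80 listed names, 74 to 76 of them measured in each of the 5 larger gates, the median log2 ratio was −0.02 in B, 0.33 in CD4 T, 0.43 in CD8B T, 0.07 in SOX13/RHEX T and 0.40 in monocytes, and −0.50 in the NK gate. Of 76 measured ribosomal protein genes in CD8B T cells, 19 were higher and 2 lower, beside 6.42% and 27.8% of all genes on the CPM scale. With TMM scaling 53 were higher and 1 lower, to be set beside the TMM counts of all genes given above for this gate.

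The eIF3 subunits did not move as a block. In the B gate 10 of 12 subunit genes had a ratio below 1 and in the CD8B T gate 10 of 12 did (7 of 12 with TMM scaling), and the exceptions were EIF3G and EIF3K in both. Centring on the median of all genes moved every log2 ratio up by 0.13 in B and 0.31 in CD8B T. The share of all genes with a ratio below 1 is not given here, so these counts cannot be read as particular to eIF3. EIF3G encodes an RNA-binding subunit of eIF3, and EIF3K a small peripheral one. EIF3K log2 ratios were 0.13 in B, 0.56 in CD4 T, 0.62 in CD8B T, 0.53 in SOX13/RHEX T and 0.84 in monocytes. EIF3G ratios were 0.14, 0.61, 0.63, 0.20 and 0.34 in the same order. EIF3L, which pairs with EIF3K in the assembled complex, had log2 ratios of −0.38, −0.20, −0.48 and 0.15 in the 4 lymphocyte gates. The core subunit gene EIF3A was at −0.33, −0.20, −0.46, −0.09 and 0.04 from B to monocytes, and EIF3H at −0.46, −0.40, −0.47, −0.46 and 0.24. In the A.G.-ES library EIF3K therefore stood above EIF3A in each of the 5 gates, at 328 against 214 CPM in B cells and 312 against 133 CPM in monocytes, and in the untreated library it did so too, at 300 against 270 and 174 against 130 CPM.

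**Figure D4:**
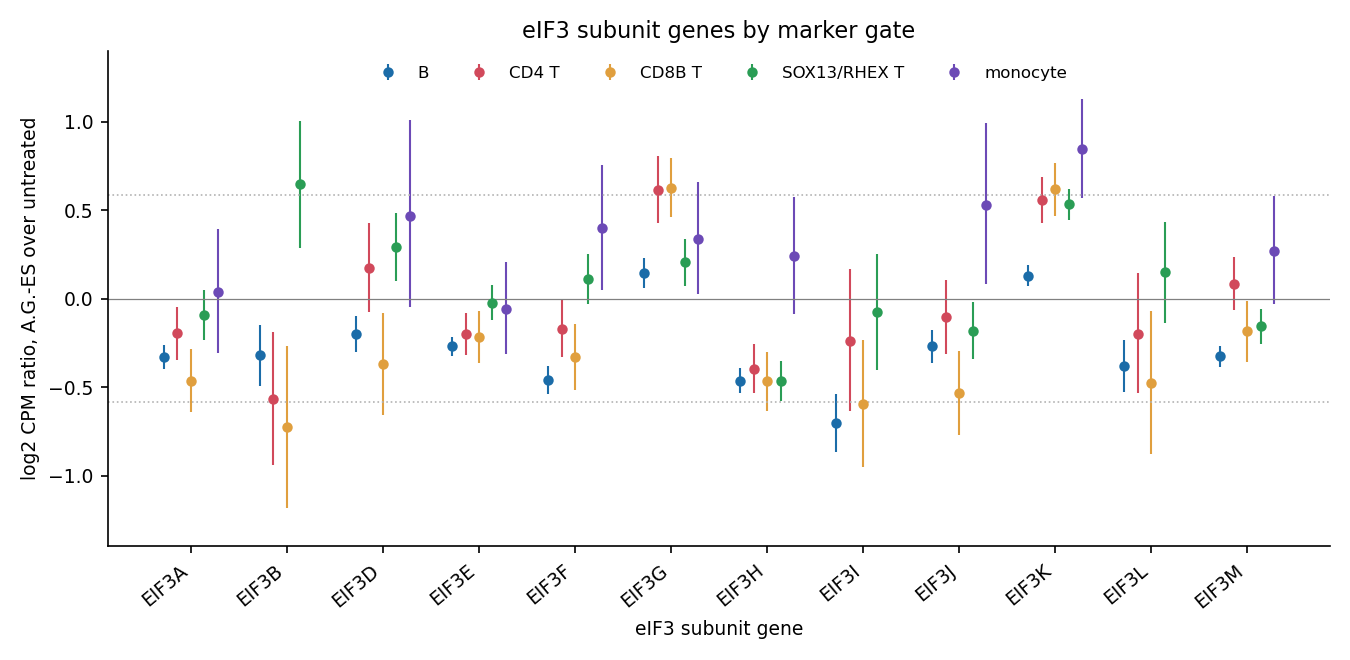
Log2 CPM ratio (A.G.-ES over untreated, y axis) of 12 eIF3 subunit genes (x axis) in 5 marker gates, 1 colour per gate, with exact conditional binomial 95% intervals that cover counting error only. Dotted lines mark 1.5-fold. EIF3G and EIF3K lie above 0 in all 5 gates, while EIF3A, EIF3H and most others lie below 0 in the B and CD8B T gates (7 of 12 in CD8B T with TMM scaling). The share of all genes below 0 is not given here. Subunits under 100 UMIs in the monocyte gate have no point there.

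Paralogues differed from each other. EIF4A1 and EIF4A2 encode closely related eIF4A helicases. EIF4A2 had log2 ratios of 0.41, 0.30, 0.61, 0.16 and 0.78 from B to monocytes, and EIF4A1 of −0.01, 0.20, 0.22, 0.01 and 0.03, so EIF4A2 had the higher ratio of the pair in each gate. EIF4A3, the exon-junction helicase, lay between −0.35 and 0.17. Among the scaffolds EIF4G3 was lower in B, CD4 T and CD8B T cells and at −0.14 in SOX13/RHEX T cells and −0.33 in monocytes, whereas EIF4G2, which lacks the EIF4E site, lay between −0.18 and 0.10. EIF4E, the main cap-binding protein, was below 0 in the same 5 gates, from −0.15 in B to −0.46 in CD4 T cells. EIF1B followed EIF1 with log2 ratios of 0.51 in B and 0.43 in CD8B T cells, and −0.21 in SOX13/RHEX T cells. EIF4EBP2 and EIF4EBP3, repressors of EIF4E like EIF4EBP1, reached at most 61.8 CPM and 4.88 CPM in the gates where they were measured.

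The eIF2 subunits diverged as well. EIF2S2, the beta subunit gene, had log2 ratios of −0.59, −0.50, −0.77 and −0.33 in the 4 lymphocyte gates, and EIF2S1, whose product carries the serine that stress kinases phosphorylate, of −0.28, −0.15, −0.23 and −0.12. EIF2S3, the gamma subunit gene, which is X-linked in mammals, was above 0 in all 4, at 0.42, 0.40, 0.29 and 0.35. EIF1AX, also X-linked, was below 0 in the same gates, from −0.54 in CD8B T to −0.16 in SOX13/RHEX T cells. These values stand beside the library difference in Y-linked UMIs, whose part in them was not tested. The eIF2B subunit genes EIF2B2 to EIF2B5 lay between −0.51 and 0.21 wherever they were measured.

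EIF5, the GTPase activator of eIF2, was at 479 and 554 CPM in B cells (log2 ratio 0.21) and 451 and 622 CPM in CD8B T cells (0.47), with values between −0.10 and 0.09 in the other 3 large gates. EIF5B lay between −0.29 and −0.05 in the 5 gates. EIF6 was at −0.38 in B and −0.49 in CD8B T cells. EIF5A, which must carry hypusine to act, was at 378 and 314 CPM in B cells (0.831-fold) and at 326 and 249 CPM in CD8B T cells (0.765-fold), and was between 1.01-fold and 1.19-fold in CD4 T, SOX13/RHEX T and monocyte gates. EEFSEC, the factor for selenocysteine, was at −0.52 in B and −0.56 in SOX13/RHEX T cells.

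The other genes of the pathway, 43 listed by name, comprised release and recycling factors, mTORC1 parts, eIF2 kinases and phosphatase subunits, and binding proteins. In B cells 3 of 41 measured were higher and 4 lower, beside 9.55% and 16.9% of all genes, with a median log2 ratio of −0.11. In CD4 T cells 2 of 39 were higher and 6 lower, beside 5.39% and 14.9%. In CD8B T cells 3 of 33 were higher and 7 lower, beside 6.42% and 27.8%. With TMM scaling they were 8 and 1, to be set beside the TMM counts of all genes given above for this gate. In SOX13/RHEX T cells 1 of 39 was higher and 4 lower, beside 4.35% and 12.9%, and in monocytes 4 and 3 of 23, beside 7.87% and 12.7%. TPT1, an abundant growth-linked message with an oligopyrimidine leader, was at 1483 and 2817 CPM in B cells and 1747 and 3916 CPM in CD8B T cells. Of the eIF2 kinase genes, EIF2AK3, the endoplasmic reticulum stress kinase, rose from 191 to 309 CPM in B cells. Its log2 ratios were −0.32 in CD4 T, 0.10 in CD8B T, −0.25 in SOX13/RHEX T and 0.08 in monocytes. EIF2AK2, the double-stranded RNA kinase, rose from 47.4 to 76.1 CPM in B cells. Its log2 ratios were −0.45 in CD4 T, −0.83 in CD8B T, 0.39 in SOX13/RHEX T and 0.67 in monocytes. RPTOR, the defining subunit of mTORC1, had log2 ratios of −0.76, −0.83 and −0.65 in the CD4 T, CD8B T and SOX13/RHEX T gates and 0.30 in monocytes. MTOR was at −0.56 in B, −0.81 in CD4 T, −0.70 in CD8B T, −0.37 in SOX13/RHEX T and −0.71 in monocytes. In the same order BTF3 was at −0.79, −0.62, −1.04, −0.87 and −0.27, and AGO2 at −0.57, −0.91, −0.27, −0.67 and −0.83. The genes named in this paragraph are a selection from the 43. Others lay near 0 in B cells, such as ABCF1 (0.05) and NACA (0.02). PPP1R15A, the stress-induced subunit that directs phosphatase to eIF2, had 33 and 177 UMIs in CD8B T cells, 20.8 and 55.6 CPM. Values of RPTOR in B cells, and of TPT1 and PPP1R15A in the remaining gates, are not given here. Group medians outside the B gate are not given either.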

How the data were processed

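Peripheral blood mononuclear cells were profiled with the SeekOne DD Single Cell 3' kit, per the labels' protocols. The authors deposited raw UMI counts per gene and barcode. Which aligner, genome build and cell caller they used is not stated in the labels or headers. The 26814 feature rows were merged by name. Retained barcodes had 500 or more UMIs, 200 or more genes and no more than 15% mitochondrial UMIs, and the top Scrublet scores (scanpy 1.11.5), 0.8% per 1000 cells, were removed as doublets (523 untreated, 715 A.G.-ES). Of 8246 and 9638 deposited barcodes, the filters removed 158 and 186.

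Gates used marker lists with minimums set after counts were seen. B cells had UMIs of at least 4 B markers and at most 1 CD3 UMI, monocytes at least 4 monocyte markers, T cells at least 2 CD3 UMIs, divided by CD4, CD8B or at least 2 SOX13 plus RHEX UMIs, and NK cells an NCR1 UMI or at least 3 NK markers without CD3 or CD8B. UMIs were summed per gate. With 1 library per group, ratios were described without a test, with a 95% counting interval and a 1.5-fold line. TMM factors came from edgeR 4.0.16. Scripts were tested on simulated counts. Gene names were matched to the RefSeq ARS-UI_Ramb_v3.0 table (60 of 60 members), which was used for names and for the chromosome of Y-linked names only.

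Members and gene lists were chosen with earlier results of these data known. The named genes were the 5 most counted initiation and elongation factors, the 5 highest and 5 lowest whole-library ratios among members with at least 200 UMIs, members past 1.5-fold in a gate, and the listed paralogue sets. SOX5, FCER2 and NPAS3 were chosen for the B-cell splits with earlier results known.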

Additional observations from a re-analysis of the deposited data

Results flagged for a closer look

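EIF3B, an RNA-binding subunit gene of eIF3, was past 1.5-fold in opposite directions in a pair of T-cell gates. Its log2 ratio of A.G.-ES over untreated was −0.73 in the CD8B T gate, from 75 untreated UMIs (47.3 CPM) to 91 A.G.-ES UMIs (28.6 CPM), a ratio of 0.604 [0.440 to 0.831]. In the SOX13/RHEX T gate it was 0.65, from 140 UMIs (20.8 CPM) to 123 UMIs (32.6 CPM), a ratio of 1.56 [1.22 to 2.01]. Under alternative settings the CD8B T log2 ratio ranged from −0.74 to −0.33 and was past 1.5-fold in 3 of 8. The SOX13/RHEX T log2 ratio ranged from 0.54 to 0.79 and was past it in 7 of 9. The difference between the gates was not tested, since each condition has 1 library. EIF3B log2 ratios in the other gates where it was measured were −0.32 in B and −0.57 in CD4 T cells. The cycling marker list stood at 1795 and 282 CPM in the CD8B T gate and at 106 and 133 CPM in the SOX13/RHEX T gate. Without cycling cells EIF3B was at 0.56 in the SOX13/RHEX T gate and had too few UMIs in the CD8B T gate.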

How the results depend on the processing

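No paired analysis was possible because each condition has 1 library. Of 508 medians and counts recomputed under alternative settings, 418 stayed near the reported value (a count within 1.5 times, a median within its interval over genes) and 90 did not. For each elongation median that interval ran from the lowest to the highest gene, so large shifts could count as near. The CD8B T elongation median was counted as near under all 12 alternatives, though it ranged from −0.02 to 0.43. A difference of medians under another total always counts as near, since both medians shift alike. Of 413 single-member ratios, 360 stayed within their counting interval, 53 left it and none past 1.5-fold changed sign. Settings that change only the count minimum leave a single ratio as it was, so they always count among those that stayed. EEF2K and EEF1B2 in CD4 T cells and EIF4E3 in B cells stayed past 1.5-fold under every alternative that gave a value (12, 12 and 7), whereas EIF3I and EIF3B in CD8B T cells did so under 2 of 9 and 3 of 8. In the values that follow, "higher" and "lower" are counts of members past 1.5-fold and medians are log2 ratios. The cause of each move was not tested. Shares of all genes called under each setting are not given beside these counts.

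With edgeR's TMM scaling, CD4 T had 10 higher, 1 lower, a member median of 0.15 and an initiation median of 0.12. CD8B T had 10 higher, 2 lower and medians of 0.11 and 0.025. SOX13/RHEX T had 2 higher and a member median of 0.075, and monocytes had 5 higher. With ratios centred on the median of all genes, the whole libraries had 4 lower. B had 5 higher, 3 lower and a member median of −0.067, CD4 T had 8 higher, 1 lower and medians of 0.13 (members) and 0.090 (initiation), and CD8B T had 10 higher, 2 lower and medians of 0.076 and −0.0081. SOX13/RHEX T had 2 higher and medians of 0.13 and 0.074, and monocytes 5 higher. With a total that leaves out ribosomal, mitochondrial and haemoglobin genes, CD4 T had 1 lower, CD8B T 3 lower with medians of −0.084 (members) and −0.17 (initiation), and monocytes 5 higher.

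With every cell given the same weight, the whole libraries had 4 lower, SOX13/RHEX T 0 higher, NK 3 lower with an elongation median of −0.66, and monocytes 5 higher. The CD8B T initiation median was −0.16 and its difference from elongation −0.26. With cells thinned to 1500 UMIs, the whole libraries had 1 lower, B 5 lower, CD4 T 1 higher and 7 lower, CD8B T 1 lower, SOX13/RHEX T 0 higher and monocytes 4 higher. The initiation minus elongation difference was then −0.27 in CD8B T and −0.59 in monocytes, whose elongation median was 0.61.

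With a minimum of 500 UMIs, B had 1 higher and 4 lower, CD4 T 2 higher, CD8B T 2 lower with a difference of −0.19, and SOX13/RHEX T 0 higher. With no minimum beyond 1 UMI in each library, CD4 T had 5 lower, CD8B T 13 lower, SOX13/RHEX T 3 higher and 1 lower, NK 7 higher and 7 lower, and monocytes 4 higher and 6 lower. With doublets kept, the CD8B T difference was −0.25, NK had 3 lower and monocytes 4 higher. With mitochondrial UMIs of at most 5%, SOX13/RHEX T had 1 lower.

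With the stricter gate, B had 1 higher, CD4 T 2 higher, and CD8B T 1 lower with medians of 0.29 (members) and 0.36 (initiation) and a difference of 0.070. Monocytes had 0 higher and an elongation median of 0.20, and 22 members were lowest in monocytes in each library. With cycling cells left out, the whole libraries and B had 4 lower each, CD8B T 1 lower with medians of −0.048 and −0.091, SOX13/RHEX T 0 higher and 1 lower, NK an elongation median of −0.54 over 1 gene, and monocytes 4 higher. With antibody-secreting cells left out, the whole libraries had 1 higher and 4 lower, B 0 higher and CD8B T 4 lower. An NK gate that requires an NCR1 UMI, chosen after seeing the data, gave a member median of −0.26. Centring was not run for levels within a library, where it has no meaning.

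Few UMIs limit the NK gate, where 9 of 60 members were measured, and the monocyte gate, where 31 were. Members near 100 UMIs had wide counting intervals. The 1.5-fold line was a chosen size, and no detection limit was computed.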
